A study of Saccharomyces cerevisiae with 8 samples.

Results

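The 37 genes described here encode the translation factors of the budding yeast Saccharomyces cerevisiae: initiation factors, elongation factors, the poly(A)-binding protein and both termination factors. They were chosen by name from a list and not by any measured value, and they are 37 of the 6002 nuclear protein-coding genes of the annotation. By role, 10 serve elongation, 7 belong to the eIF4 group with the poly(A)-binding protein, 6 form eIF3 or bind it, 7 serve start codon selection and the ternary complex, 5 form eIF2B and 2 serve termination. The region of a gene ran from 600 bp upstream of its coding sequence to the end of that sequence, introns included.

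Translation factors bring the ribosome to an mRNA, find the start codon, move the ribosome along the message and release the finished protein. Their genes are among the more strongly transcribed of growing yeast, above all those of the elongation factors eEF1A and eEF2. Along a typical yeast gene, a nucleosome-depleted region upstream of the coding sequence is flanked by a -1 and a +1 nucleosome, and an array of nucleosomes follows the +1 into the gene. MNase-seq maps this arrangement by digesting the DNA between nucleosomes and sequencing the protected fragments.

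The treated group held 4 libraries of cells that received 1,10-phenanthroline, which binds metal ions and is used as an inhibitor of transcription, at 100 µg/ml and 30 °C for 30 min. The other group held 4 libraries from cells not treated, and the comparison asks how nucleosomes are arranged when transcription is impaired. Each group had 1 library of each of 4 strains, numbered 1 to 4 in the labels. All strains came from the line PPY1, were grown in YPD and synchronised in G1, and shared the genotype MATa his3Δ0 leu2Δ0 met15Δ0 ura3Δ0 bar1::leu2, so that every library, treated or not, carried these alleles. In addition each strain was labelled as carrying an 81 bp insert in 2 genes: CKB2 and DGK1 for strain 1, PPT1 and SLM3 for strain 2, TRP4 and PAN5 for strain 3, UBX5 and BSP1 for strain 4. No member is an inserted gene, and no uninserted strain was among the samples. Nothing in the labels says that both libraries of a strain came from separate cultures, and p-values therefore measure only how these libraries spread, which may be technical.

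The libraries held between 72649 and 75086 nuclear nucleosome calls, and the calls in the regions of the 37 genes numbered 432, 435, 437 and 436 with phenanthroline and 421, 426, 419 and 424 untreated. Per the labels each sample had some 10 M read pairs, so the depth of single libraries is unknown and no counting interval could be given. A call has a centre, the dyad, and a score between 0 and 1 that averages a width score, which is lower where fragments scatter, and a height score that rises with coverage. The coordinates stepped by 78.5 to 83 bp at all 8 insertion sites, each time in both libraries of 1 strain label, but in 0 of the 16 cases was it the strain labelled as carrying that insert. The inserts labelled for strain 1 appeared in the libraries labelled 2, those for strain 2 in 3, those for strain 3 in 4 and those for strain 4 in 1, so libraries are named below by their label only. Both treatments showed the same assignment, and the steps found were subtracted, which touched 8 members beyond a site: EFT1, EFT2, TIF4631, PRT1, TIF35, GCD1, GCD6 and SUP35. Among the genes of the shared genotype, 0 calls lay in URA3 and in MET17 (the gene also named MET15) in every library, while HIS3 held 2 to 3, LEU2 8 to 11 and BAR1 11 to 13. Values below are given in the order of strain labels 1 to 4.

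The first feature of these genes was a gap in the calls. In all 6 genes of the near-identical pairs TEF1/TEF2, EFT1/EFT2 and TIF1/TIF2, nearly the whole coding sequence held no dyad in any library. TEF1 and TEF2 encode the same eEF1A, which carries aminoacyl-tRNA to the ribosome, EFT1 and EFT2 the same eEF2, which moves the ribosome by 1 codon, and TIF1 and TIF2 the same eIF4A, the helicase that unwinds mRNA leaders. In EFT1 (YOR133W, chromosome XV, 575098 to 577626, forward strand) the longest stretch without a dyad ran 2490 to 2500 bp of the 2529 bp coding sequence over the 8 libraries. The stretch ran 2411 to 2473 bp in EFT2 (YDR385W, chromosome IV, 1243230 to 1245758, forward strand), which has the same length. In TEF1 (YPR080W, chromosome XVI, 700594 to 701970, forward strand) and TEF2 (YBR118W, chromosome II, 477671 to 479047, forward strand), both 1377 bp long, it ran 1339 to 1376 bp and 1315 to 1376 bp. TIF1 (YKR059W, chromosome XI, 554987 to 556174, forward strand) and TIF2 (YJL138C, chromosome X, 153504 to 154691, reverse strand), both 1188 bp long, had stretches of 1130 to 1140 bp and 1133 to 1187 bp.

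**Figure D1:**
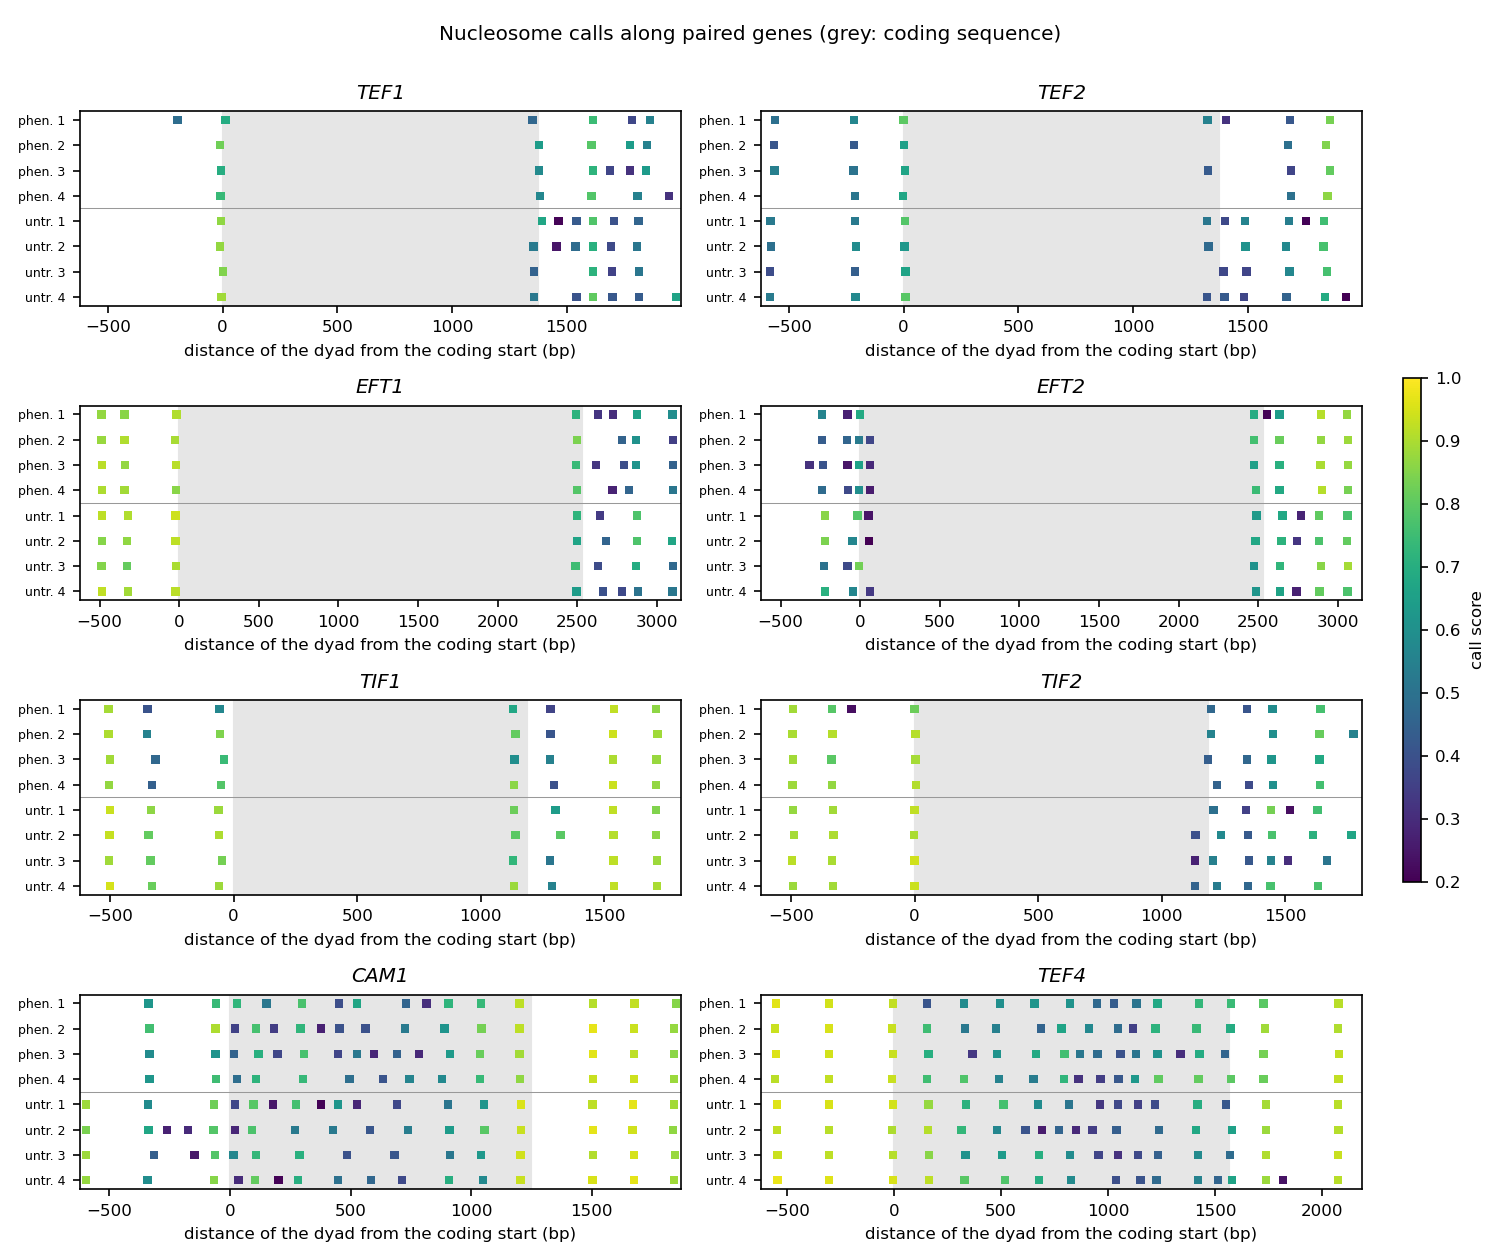
Nucleosome calls along the near-identical pairs and, for comparison, along CAM1 and TEF4. Each square is 1 call, placed by the distance of its dyad from the coding start in bp and coloured by its score, with the 4 phenanthroline libraries above the 4 untreated libraries and the coding sequence shaded. The coding sequences of TEF1, TEF2, EFT1, EFT2, TIF1 and TIF2 hold calls at their ends at most, in both treatments, while CAM1 and TEF4 hold calls throughout.

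Calls resumed beside these coding sequences in both treatments, as the map of calls along paired genes shows. Over the other members the longest stretch in any library was 279.5 bp. Among all 3592 genes of at least 1000 bp, 187 (5.21%) held a stretch over 500 bp in every library, and 6 of the 26 members of that length did. Reads from a near-identical copy cannot be placed uniquely, and how such reads were handled is not given in the sources used here, so its part in the gaps was not tested. For these 6 genes every score below rests on few calls: 1 to 3 in the region of TEF1, 2 to 4 in TEF2, 4 in EFT1, 4 to 6 in EFT2, 4 in TIF1 and 3 to 4 in TIF2. Pairs that are related but less alike held calls throughout: HYP2/ANB1 for eIF5A, CAM1/TEF4 for the gamma subunit of eEF1B, and TIF4631/TIF4632 for eIF4G.

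The members differed more from each other than between treatments. Averaged over the calls of a region, the lowest untreated score was that of YEF3, the fungal elongation factor eEF3, at 0.517 ± 0.0364 (SD, n = 4), followed by TIF4631 at 0.547 ± 0.00850, TIF4632 at 0.562 ± 0.0123 and RPG1, the largest subunit of eIF3, at 0.576 ± 0.0162. YEF3 and TIF4631 differed by less than the SD of YEF3, and TIF4631 and TIF4632 overlapped between libraries. The highest was that of ANB1, the eIF5A gene used when oxygen is low, at 0.913 ± 0.0102, followed by TIF11 at 0.900 ± 0.0238 and TIF35 at 0.866 ± 0.00494, and ANB1 and TIF11 overlapped between libraries. ANB1 stood above 99.0% of all genes with a region score and YEF3 above 3.63%. The genes named as lowest are 2745 to 3135 bp long and those named as highest 462 to 825 bp. Untreated, the member median was 0.859 upstream and 0.676 in the gene body, and upstream calls weigh more in a short gene. The part of length in this order was not tested. The paralogue of ANB1 used in air, HYP2, which is also 474 bp long, scored 0.632 ± 0.0300 untreated. The median over the 35 members with a region score was 0.711 with phenanthroline and 0.705 untreated, and over all genes it was 0.694 and 0.713.

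Depleted regions varied as widely. The distance from the -1 to the +1 dyad was widest at TEF1, at 623 bp with phenanthroline and 611 bp untreated, followed by YEF3 (582 and 578 bp), HYP2 (536 and 529.5 bp), and then by EFB1 (505 and 529 bp) and GCD6 (520.5 and 519 bp), whose order turned between the treatments. EFB1 encodes the alpha subunit of eEF1B, the exchange factor that reloads eEF1A with GTP, and GCD6 the catalytic subunit of eIF2B. The narrowest were those of ANB1, at 200 bp with phenanthroline and 194 bp untreated, TEF2, at 216.5 bp in both, and EFT2, at 233 bp with phenanthroline and 194 bp untreated. The gap had to end from -150 to 200 bp of the coding start, and wider stretches lay farther upstream at TEF2 and EFT2. TEF2 held no dyad between -562 and -218 bp in any library. EFT2 held none upstream of -241 bp within the 600 bp window, except at -317 bp in phenanthroline label 3. At ANB1 that window held 1 call in each library, except 2 in phenanthroline label 1. Its narrow value therefore does not mean that nucleosomes filled the upstream window. The member median was 301 bp with phenanthroline and 297.5 bp untreated, against 268 and 257 bp over all 5253 genes measured. Of the 37 upstream neighbours, 22 were in tandem and 15 divergent, and 26 lay under 600 bp away, so that the upstream window often reached into a neighbour.

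Upstream of the coding sequence, scores were lower with phenanthroline at 7 of the 36 members tested and higher at 0. The 7 were TIF11, PAB1, TIF1, EFT2, GCD11, SUI3 and CDC33, that is 5 genes of initiation factors, the poly(A)-binding protein and 1 elongation factor gene. Each of these scores rests on few calls. GCD11 held 2 upstream calls in every library, TIF1 and CDC33 held 3, TIF11, PAB1 and SUI3 held 2 to 3, and EFT2 held 2 to 4. Over all 5851 genes tested with limma, 16.5% passed the adjusted p of 0.05, 15% lower and 1.5% higher, and 19.4% of the members did. At an unadjusted limma p under 0.05, 0 members were higher and 11 lower, where 233 and 1611 of the 5851 genes were. The median difference was -0.0369 over members and -0.0309 over all genes, with 27 of 36 members and 4200 of 5851 genes below 0. TEF1 had no value, because in the untreated library of label 3 its dyad at the start lay just inside the coding sequence.

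TIF11 (YMR260C, chromosome XIII, 789378 to 789839, reverse strand) encodes eIF1A, which helps the small ribosomal subunit scan for the start codon. Its promoter score was 0.525, 0.658, 0.738 and 0.572 with phenanthroline, against 0.927, 0.908, 0.861 and 0.913 untreated. The value of phenanthroline label 4 includes an extra call at -551 bp scored 0.181, beside calls scored 0.746 and 0.790. All 4 phenanthroline libraries lay below all untreated ones, and the difference of -0.279 (SE 0.0439, limma adjusted p = 0.00721) was the largest fall among the members. PAB1 (YER165W, chromosome V, 510373 to 512106, forward strand), the poly(A)-binding protein that joins the ends of the mRNA, had 0.591, 0.651, 0.698 and 0.623 with phenanthroline, against 0.819, 0.816, 0.766 and 0.782 untreated. Again the groups did not overlap, with a difference of -0.155 (SE 0.0257, limma adjusted p = 0.00844). TIF1, 1 of the eIF4A genes, had 0.621, 0.767, 0.699 and 0.699 with phenanthroline, against 0.892, 0.880, 0.842 and 0.883 untreated, 3 calls in each library. It fell by 0.178 (SE 0.0299, limma adjusted p = 0.00859) without overlap, while its near-identical partner TIF2 differed by -0.0806 (SE 0.0541, limma adjusted p = 0.345) with overlapping groups. The difference between these partners was not tested.

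EFT2 had 0.507, 0.473, 0.406 and 0.484 with phenanthroline, against 0.821, 0.704, 0.570 and 0.636 untreated, a difference of -0.215 (SE 0.0508, limma adjusted p = 0.0251) without overlap. Its -1 call, between -241 and -221 bp, scored 0.561, 0.432, 0.408 and 0.477 with phenanthroline, against 0.857, 0.842, 0.500 and 0.707 untreated. The calls nearer the start were also split differently. All 4 phenanthroline libraries and untreated label 3 held a separate call between -81 and -78 bp, scored 0.246 to 0.457, which the other untreated libraries lacked. In untreated labels 2 and 4 a single call of 214 and 213 bp lay there, wider than the 147 bp of most calls. With no offset subtracted beyond the insertion sites EFT2 differed by -0.0793 (limma adjusted p = 0.428), and with centred scores by -0.191 (limma adjusted p = 0.0528), neither past the threshold. EFT1, its partner, differed by -0.00267 (SE 0.0189, limma adjusted p = 0.941), and the difference between the EFT genes was not tested. SUI3 (YPL237W, chromosome XVI, 100496 to 101353, forward strand) encodes the beta subunit of eIF2, the factor that carries the initiator tRNA, and had 0.517, 0.684, 0.615 and 0.540 with phenanthroline, against 0.845, 0.647, 0.803 and 0.818 untreated. The groups overlapped at untreated label 2, and the difference was -0.190 (SE 0.0516, limma adjusted p = 0.0408). Over calls scored at least 0.4 it was -0.0708 and did not pass. GCD11 (YER025W, chromosome V, 205251 to 206834, forward strand), the gamma subunit of eIF2, had 0.861, 0.877, 0.918 and 0.873 with phenanthroline, against 0.964, 0.960, 0.929 and 0.964 untreated. CDC33 (YOL139C, chromosome XV, 60383 to 61024, reverse strand), the cap-binding protein eIF4E, had 0.863, 0.912, 0.884 and 0.874 with phenanthroline, against 0.943, 0.940, 0.927 and 0.949 untreated. Neither overlapped, and the differences were -0.0719 (SE 0.0181, limma adjusted p = 0.0318) for GCD11 and -0.0562 (SE 0.0161, limma adjusted p = 0.0481) for CDC33, small beside those above. CDC33 differed by -0.0256 (limma adjusted p = 0.271) with the median over calls. Both untreated means were near the top of the scale, at 0.954 ± 0.0169 and 0.940 ± 0.00934 (SD, n = 4), higher than in 99.4% and 97.6% of all genes.

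By role, 3 of 7 genes of start codon selection and the ternary complex passed, 3 of 7 of the eIF4 group, 1 of 9 elongation genes, 0 of 6 eIF3 genes, 0 of 5 eIF2B genes and 0 of 2 termination genes. The 29 members that did not pass differed by between -0.186 (EFB1) and 0.0383 (TIF4632). The widest spread lay in EFB1, with 0.352, 0.665, 0.478 and 0.502 with phenanthroline, against 0.771, 0.804, 0.375 and 0.791 untreated, so its groups overlapped and the adjusted p was 0.264. EFB1 held 1 upstream call in each untreated library and 1 to 5 with phenanthroline. With the strain number as a block 4 of the 7 remained: TIF11, PAB1, TIF1 and EFT2. Without the libraries of label 1, 2, 3 and 4 in turn, 2, 4, 5 and 0 members passed. Scores centred on the median of their library, which lies lower with phenanthroline, left 3 members lower and 0 higher, and the width score alone left 2, TIF11 and SUI3. In all, 7 of 36 members had promoter scores whose groups did not overlap, not all of them past the threshold, where 23.4% of 5851 genes did.

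**Figure D2:**
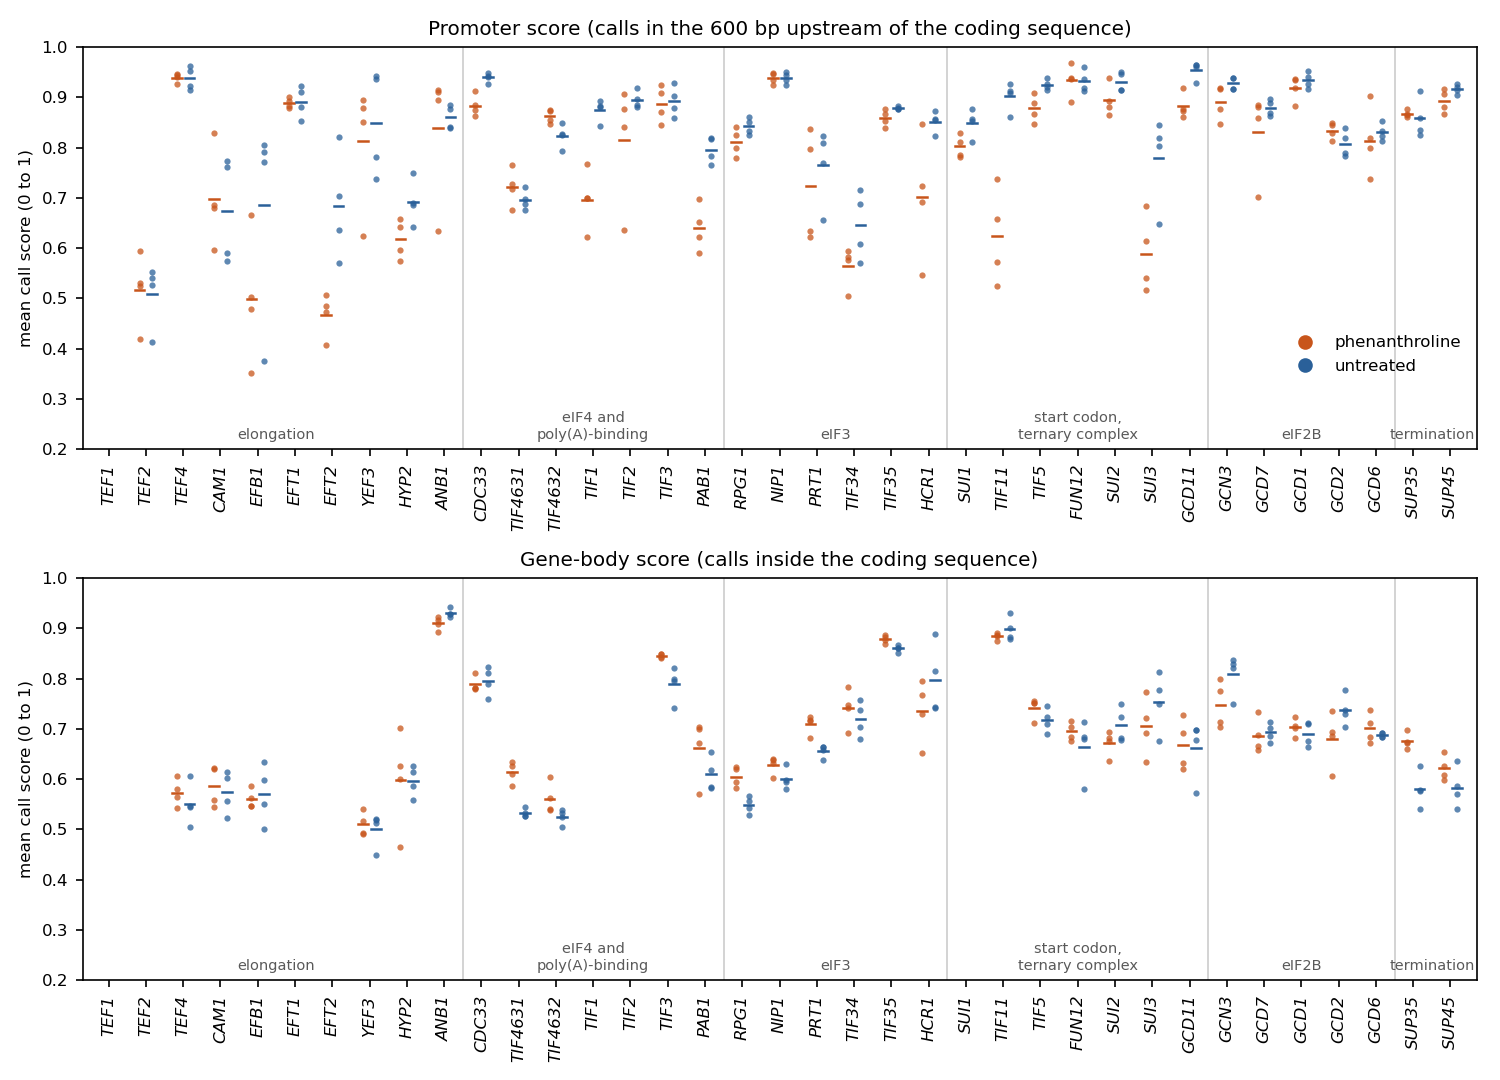
Promoter score (top) and gene-body score (bottom) of each member, as the mean deposited score over calls on a scale of 0 to 1, by role. Each point is 1 library, phenanthroline left and untreated right, and each bar is the mean of 4 libraries. Among the members past the threshold, points of TIF11, PAB1, TIF1, EFT2, GCD11 and CDC33 do not overlap in the top panel, nor those of TIF4631 and SUP35 in the bottom panel. Genes without points had too few calls.

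Inside the coding sequence the share of members past the threshold was near that of all genes. Of the 30 members with at least 3 calls in every library, TIF4631 and SUP35 were higher with phenanthroline and 0 were lower, or 6.67%. Over all 5094 genes 6.81% passed, 3.16% higher and 3.65% lower. At an unadjusted p under 0.05 in limma, 5 members were higher and 1 lower, where 562 and 739 of the 5094 genes were. The median difference was 0.0130 over members and -0.00597 over all genes, and 20 of 30 members and 2287 of 5094 genes were above 0. Centred scores gave 5 members higher and 0 lower, with a median of 0.0369 over members and 0.0179 over all genes, and among all genes 527 higher and 100 lower in place of 161 and 186. With the width score alone the median over members turned to -0.0134 and 0 members passed (7 at an unadjusted p under 0.05), and with the height score alone it was 0.0454 and 5 rose.

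TIF4631 (YGR162W, chromosome VII, 824059 to 826917, forward strand) encodes eIF4G, the scaffold that binds eIF4E, eIF4A and the poly(A)-binding protein. Its gene-body score was 0.609, 0.626, 0.586 and 0.635 with phenanthroline, against 0.526, 0.526, 0.532 and 0.545 untreated. Every phenanthroline library lay above every untreated one, with a difference of 0.0817 (SE 0.0167, limma adjusted p = 0.0206). Its paralogue TIF4632 (YGL049C, chromosome VII, 406860 to 409604, reverse strand) differed by 0.0358 (SE 0.0192, limma adjusted p = 0.276), and the difference between the paralogues was not tested. SUP35 (YDR172W, chromosome IV, 808324 to 810381, forward strand) encodes the release factor eRF3, known for its prion form, and had 0.660, 0.699, 0.673 and 0.672 with phenanthroline, against 0.540, 0.625, 0.579 and 0.577 untreated. Those groups did not overlap either, and the difference was 0.0959 (SE 0.0204, limma adjusted p = 0.0241). SUP45, the partner release factor eRF1, differed by 0.0380 (SE 0.0227, limma adjusted p = 0.329). Both TIF4631 and SUP35 lie beyond an insertion site, 86444 and 318205 bp from the nearest one, and leaving out such chromosome parts removed them from the test. With the strain block both remained. Without label 1, 2, 3 and 4 in turn, 0, 1, 1 and 0 members passed.

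The 28 other members ranged from -0.0618 (HCR1) to 0.0560 (TIF3). TIF3, which encodes eIF4B, had 0.841, 0.850, 0.848 and 0.843 with phenanthroline, against 0.798, 0.796, 0.742 and 0.821 untreated. Its groups did not overlap, with an adjusted p of 0.0980, which misses the threshold. RPG1 had 0.623, 0.582, 0.594 and 0.619 with phenanthroline, against 0.557, 0.529, 0.542 and 0.567 untreated, again without overlap and with an adjusted p of 0.0762. In all, 6 members had groups that did not overlap in the gene body, or 20% of 30, where 16.5% of all genes did.

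Over whole regions, 4 of the 35 members with enough calls passed, 2 higher (TIF4631, SUP35) and 2 lower (TIF11, TIF1), where 8.69% of 5754 genes did, 2.02% higher and 6.67% lower. The median was 0.00437 over members and -0.0139 over all genes, and with centred scores 338 genes were higher and 145 lower in place of 116 and 384. Region scores of TIF4631 differed by 0.0761 (SE 0.0164, limma adjusted p = 0.0210), of SUP35 by 0.0785 (SE 0.0178, limma adjusted p = 0.0252), of TIF11 by -0.128 (SE 0.0232, limma adjusted p = 0.0105) and of TIF1 by -0.151 (SE 0.0296, limma adjusted p = 0.0142). TIF1 rests on 4 calls, 3 of them upstream. The largest rise after TIF4631 and SUP35 was that of RPG1 at 0.0468 (SE 0.0168, limma adjusted p = 0.102), and the largest fall after TIF1 and TIF11 that of HCR1, an accessory subunit of eIF3, at -0.0954 (SE 0.0360, limma adjusted p = 0.117). EFT2 missed the threshold at -0.0879 (SE 0.0262, limma adjusted p = 0.0585) and passed it with the strain block, at an adjusted p of 0.0390. The pairs HYP2 and ANB1, at -0.0246 and -0.0309, and TEF4 and CAM1, at 0.0154 and 0.00963, did not pass. Without label 1, 2, 3 and 4 in turn, 0, 4, 3 and 0 members passed.

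Single nucleosomes show where these differences lay. The member regions held 446 consensus nucleosomes, 369 of them called in all 8 libraries, of which 16 rose and 11 fell in score. That is 7.32% of 369, where 8.38% of 60148 nucleosomes in the genome passed, 2.87% higher and 5.51% lower. Of 88 upstream of a coding sequence 1 was higher and 8 lower, or 1.14% and 9.09%, where over all genes 1.14% and 9.06% were, so the upstream share was near that of the genome. Of 281 inside one 15 were higher and 3 lower, or 5.34% and 1.07%, where over all genes 3.41% and 3.49% were. The largest drop was at the -1 nucleosome of TIF1, at -337 bp from its coding start, with 0.404, 0.553, 0.467 and 0.441 with phenanthroline, against 0.863, 0.808, 0.807 and 0.818 untreated. The groups stood far apart, with a difference of -0.358 (SE 0.0338, limma adjusted p = 0.00252), and it passed with the strain block and without each label in turn. With scores centred on the library median, 25 of the 369 rose and 4 fell, where in the genome 2840 rose and 2184 fell in place of 1726 and 3312.

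At TIF11 the -1 nucleosome, at -290 bp from the coding start, scored 0.517, 0.599, 0.707 and 0.790 with phenanthroline, against 0.942, 0.911, 0.880 and 0.905 untreated. The nucleosome before it, at -447 bp, averaged 0.691 ± 0.108 with phenanthroline and 0.895 ± 0.0363 untreated (SD, n = 4). Both fell, by 0.256 (SE 0.0544, limma adjusted p = 0.0276) and 0.204 (SE 0.0510, limma adjusted p = 0.0463), and the nearer lies between TIF11 and its tandem neighbour TPS3, 365 bp upstream, the farther inside TPS3. The -1 nucleosomes of SUI3 and HCR1, both at -316 bp, fell as well, by 0.240 (SE 0.0611, limma adjusted p = 0.0486) and 0.167 (SE 0.0427, limma adjusted p = 0.0491). At the +1, scores fell at CDC33, averaging 0.763 ± 0.0524 with phenanthroline and 0.907 ± 0.0168 untreated, at RPG1, averaging 0.836 ± 0.0386 with phenanthroline and 0.962 ± 0.0263 untreated, at PAB1, averaging 0.534 ± 0.0723 with phenanthroline and 0.700 ± 0.0496 untreated, and at TEF1, averaging 0.739 ± 0.0617 with phenanthroline and 0.868 ± 0.0150 untreated (SD, n = 4 each). RPG1 had 0.862, 0.802, 0.804 and 0.876 with phenanthroline, against 0.998, 0.952, 0.937 and 0.962 untreated, lower in every treated library. The exception upstream was PRT1, the scaffold subunit of eIF3 with an RNA-binding domain, where a nucleosome at -480 bp rose by 0.170 (SE 0.0320, limma adjusted p = 0.0189), inside the tandem neighbour PRE10, 227 bp away.

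The rises lay inside genes, many of them far from the start. In TIF4631 the 20th nucleosome, at 2391 bp, scored 0.746, 0.840, 0.720 and 0.818 with phenanthroline, against 0.512, 0.561, 0.569 and 0.562 untreated, a difference of 0.230 (SE 0.0316, limma adjusted p = 0.00629). Its 7th nucleosome differed by 0.186 (SE 0.0330, limma adjusted p = 0.0156), and its 2nd and last, the 23rd, passed as well. FUN12, which encodes eIF5B, the factor that joins the ribosomal subunits, had 0.841, 0.855, 0.823 and 0.806 with phenanthroline, against 0.517, 0.389, 0.615 and 0.567 untreated at its 20th nucleosome, 2876 bp in. No library of either group came near the other, and the difference was 0.309 (SE 0.0453, limma adjusted p = 0.00790). TEF4 had 0.679, 0.713, 0.608 and 0.806 with phenanthroline, against 0.382, 0.472, 0.442 and 0.475 untreated at its 10th nucleosome, and HYP2 had 0.519, 0.734, 0.733 and 0.692 with phenanthroline, against 0.394, 0.437, 0.463 and 0.461 untreated at its 4th. Both rose without overlap, by 0.259 (SE 0.0427, limma adjusted p = 0.0121) and 0.231 (SE 0.0483, limma adjusted p = 0.0264). Further rises passed in RPG1 (2 nucleosomes), PRT1, GCD2, TIF4632, PAB1, NIP1 and FUN12, and falls in GCD7 and TIF34. With the strain block 16 nucleosomes passed, and without label 1, 2, 3 and 4 in turn 2, 16, 7 and 6.

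**Figure D3:**
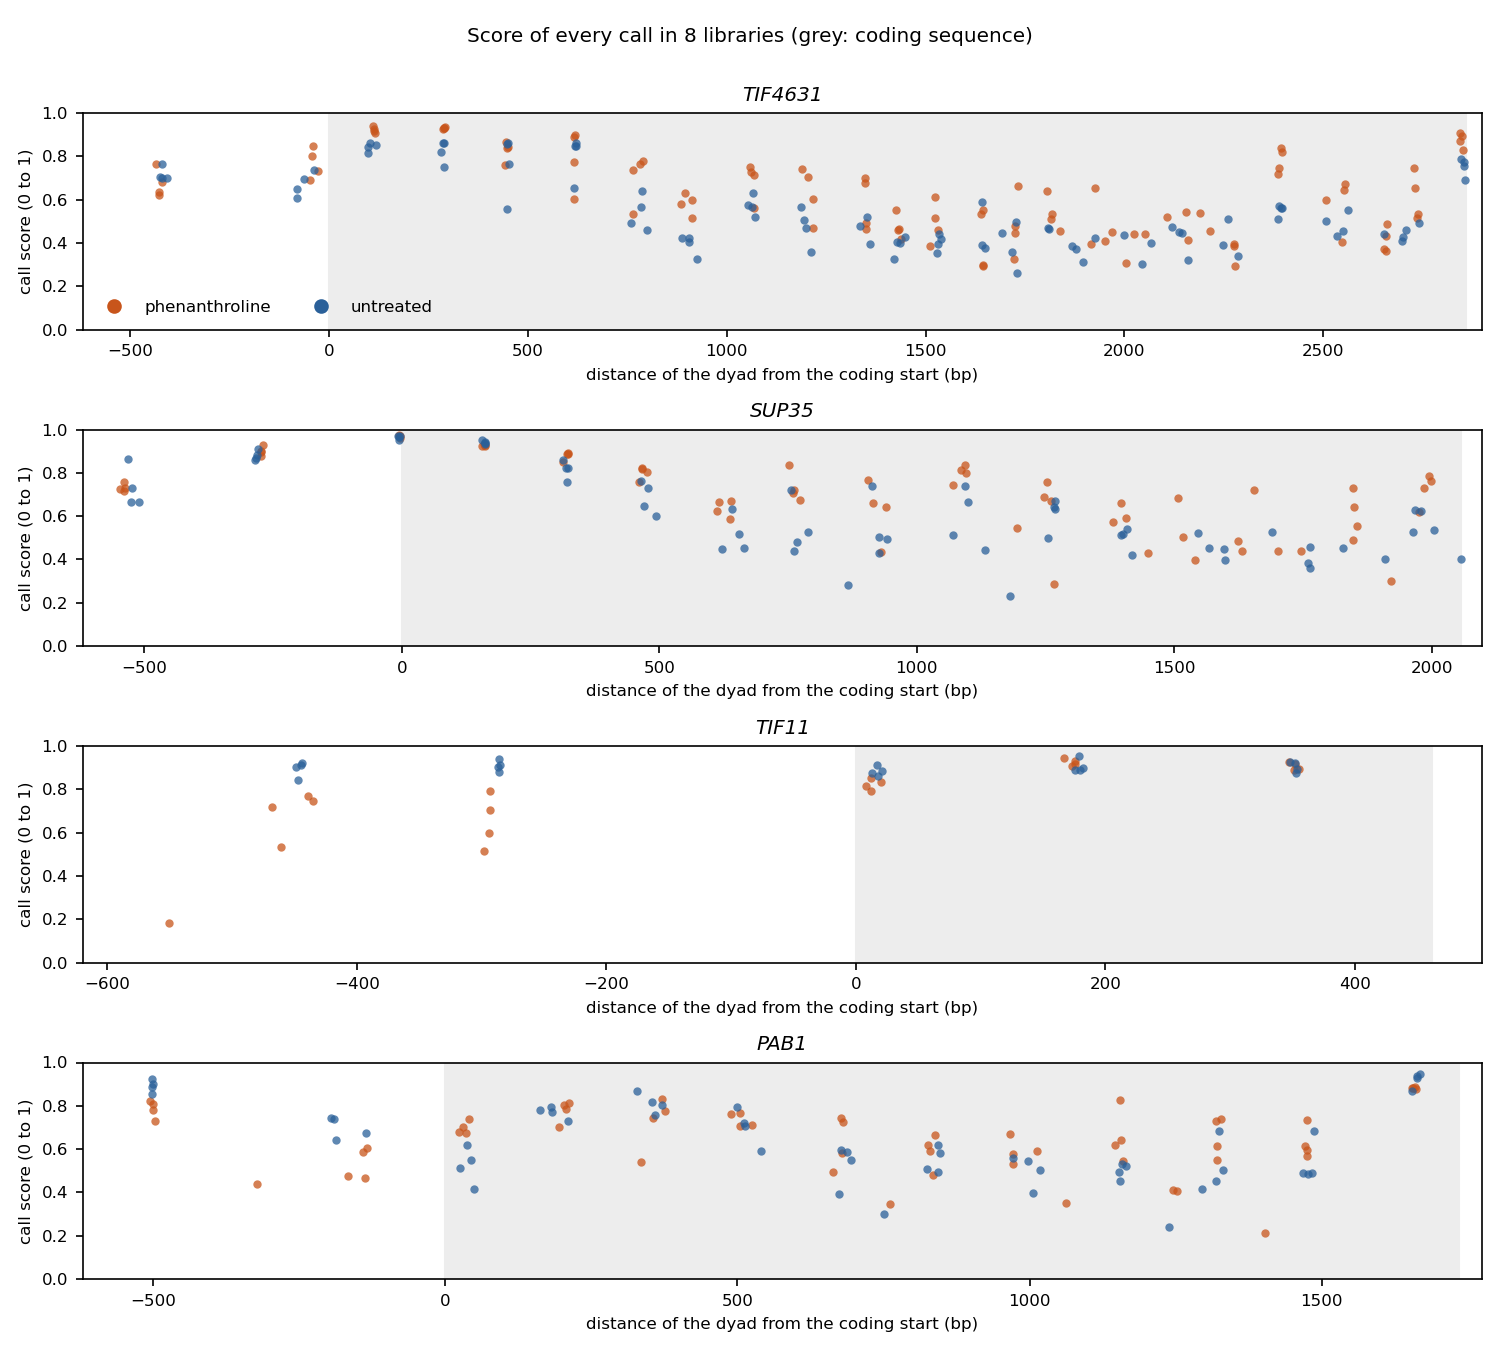
Score of every call (0 to 1) against the distance of its dyad from the coding start in bp, for TIF4631, SUP35, TIF11 and PAB1, with phenanthroline and untreated libraries in 2 colours and the coding sequence shaded. In TIF4631 and SUP35 the phenanthroline points lie mostly above the untreated ones within the gene, and in TIF11 and PAB1 below them upstream of it.

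Split by distance from the coding start, with limits chosen after the values were seen, the member nucleosomes had a median score difference of -0.0251 in the 600 bp upstream (n = 88), -0.0100 in the first 500 bp of the gene (n = 96), 0.0365 from 500 to 1000 bp (n = 78), 0.0563 from 1000 to 1500 bp (n = 48) and 0.0786 beyond 1500 bp (n = 59). Over all genes the medians in the same steps were -0.0156, -0.00623, -0.00260, 0.00918 and 0.0113. Members of the last step came from 14 genes, and differences above 0 made up 78% of member nucleosomes there, against 55.7% over all genes. Past the threshold in that step were 5 higher and 0 lower, or 8.47% of members higher, where over all genes 4.64% were higher and 2.99% lower. In the 4 steps before it, from upstream on, 1.14%, 4.17%, 3.85% and 6.25% of member nucleosomes were higher, where 1.14%, 1.82%, 3.37% and 5.06% over all genes were. Lower were 9.09%, 2.08%, 1.28% and 0% of member nucleosomes in those steps, where 9.06%, 3.92%, 3.93% and 2.58% over all genes were. Nucleosomes of 1 gene are not independent, so no test was made of this order.

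**Figure D4:**
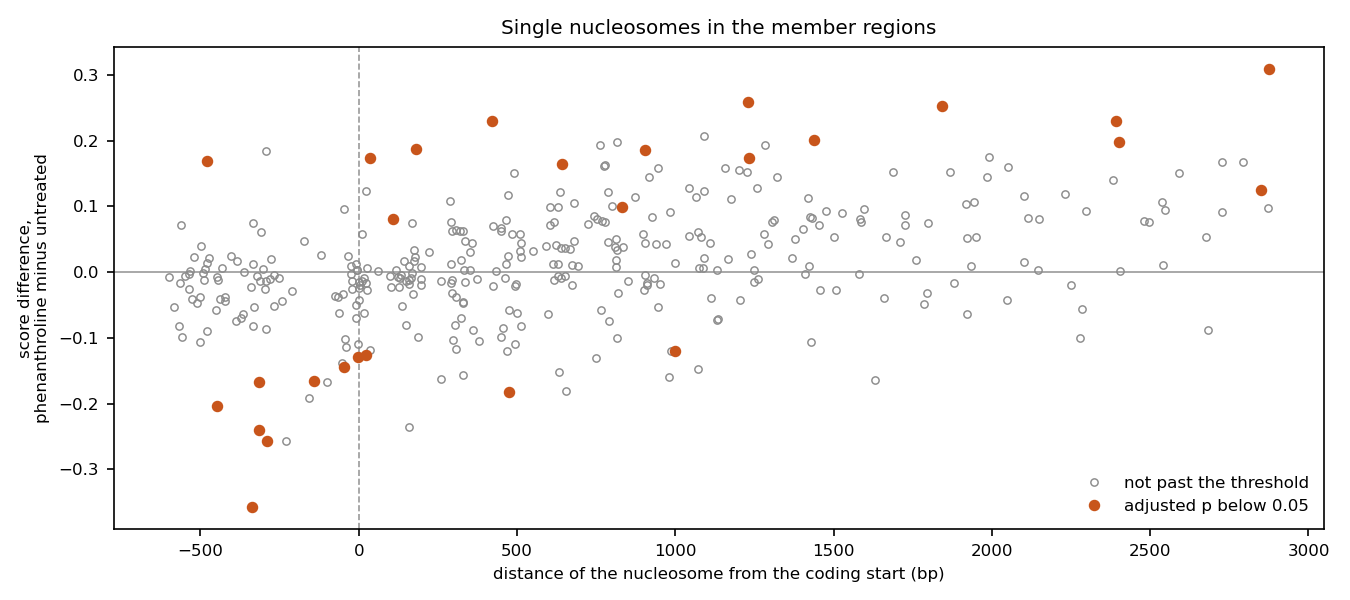
Score difference, phenanthroline minus untreated, of the 369 nucleosomes of the member regions called in all 8 libraries, against their distance from the coding start in bp. Filled points passed a limma adjusted p of 0.05, 16 above 0 and 11 below it. Most filled points left of the coding start lie below 0, and the 8 filled points beyond 1000 bp lie above it.

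The depleted region was wider with phenanthroline at 9 of 37 members and narrower at 1, where 26% of 5253 genes passed, 23.9% wider and 2.11% narrower. The median difference was 4.25 bp over members and 7 bp over all genes. With the strain block 0 members and 36 genes passed by limma, although 13 members and 2123 genes did at an unadjusted p under 0.05. Without label 1, 2, 3 and 4 in turn, 0, 1, 9 and 0 members passed.

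TIF4632 had 281, 281, 287 and 273 bp with phenanthroline, against 248, 238, 263 and 247 bp untreated. No library overlapped, and the difference was 31.5 (SE 5.44, limma adjusted p = 0.0150) in bp. TIF4631, its paralogue, had 400, 386, 385 and 381 bp with phenanthroline, against 339, 340, 387 and 344 bp untreated, so that untreated label 3 stood with the treated libraries. Its difference was 35.5 (SE 10.8, limma adjusted p = 0.0458). EFT1 had 327, 315, 321 and 324 bp with phenanthroline, against 299, 306, 309 and 297 bp untreated, without overlap and with a difference of 19 (SE 3.75, limma adjusted p = 0.0186). EFT2, at 39.4 (SE 10.0, limma adjusted p = 0.0304), had 237, 235, 225 and 235 bp with phenanthroline, against 205, 174, 219 and 177 bp untreated, where the low values of labels 2 and 4 came from the wide calls named above. GCD7 (YLR291C, chromosome XII, 718317 to 719462, reverse strand), the beta subunit of eIF2B, had 256, 258, 258 and 262 bp with phenanthroline, against 242, 238, 252 and 247 bp untreated. Here too the groups did not overlap, with a difference of 13.8 (SE 3.35, limma adjusted p = 0.0275).

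Smaller differences passed at RPG1, at 12.2 (SE 3.34, limma adjusted p = 0.0352), GCD11, at 7 (SE 1.96, limma adjusted p = 0.0378), GCD1, the gamma subunit of eIF2B, at 7.25 (SE 2.01, limma adjusted p = 0.0370), and TIF2, at 8.50 (SE 2.57, limma adjusted p = 0.0447), all in bp. GCD1 had 296, 293, 298 and 294 bp with phenanthroline, against 287, 288, 288 and 289 bp untreated, apart by a few bp in every library. SUP35 was the only member to pass as narrower, with 266, 267, 269 and 269 bp with phenanthroline, against 275, 276, 276 and 280 bp untreated. The groups did not overlap, with a difference of -9 bp (SE 2.08, limma adjusted p = 0.0251). PAB1, with 363, 338, 360 and 363 bp with phenanthroline, against 310, 306, 367 and 316 bp untreated, did not pass, with untreated label 3 above the treated libraries and an adjusted p of 0.117. In all, 10 of 37 members had groups that did not overlap in width, or 27% against 30% over all genes.

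**Figure D5:**
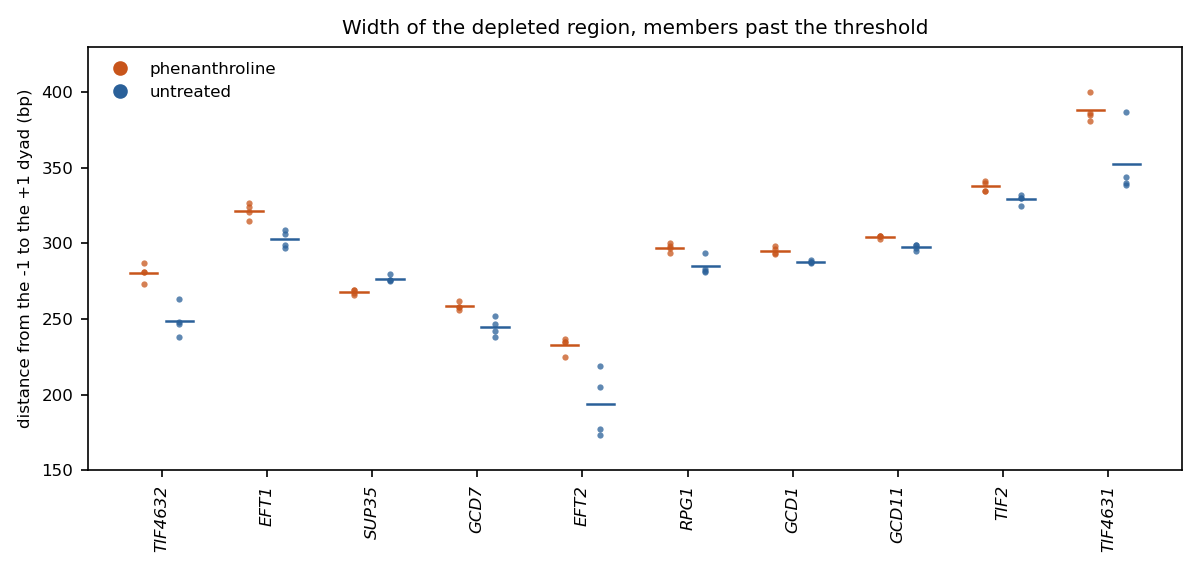
Distance from the -1 to the +1 dyad in bp at the 10 members past the threshold, 1 point per library, phenanthroline left and untreated right, with the mean of 4 libraries as a bar. SUP35 lies lower with phenanthroline, the other 9 higher, and untreated label 3 of TIF4631 lies among its treated libraries. The axis does not start at 0.

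The +1 nucleosome lay further into the gene with phenanthroline at 3 of 37 members, GCD7, CAM1 and SUI3, and further upstream at 0. Over all 5567 genes 19.8% passed in limma, 17.8% downstream and 1.98% upstream. At an unadjusted limma p under 0.05, 13 members lay downstream and 2 upstream, where 1952 and 264 of all genes did. The median difference was 2.5 bp over members and 3.5 bp over all genes. Relative to the coding start, the +1 dyad of GCD7 stood at 14, 13, 11 and 16 bp with phenanthroline, against 2, 2, 8 and 5 bp untreated, a difference of 9.25 (SE 1.81, limma adjusted p = 0.0212) without overlap. CAM1 (YPL048W, chromosome XVI, 464401 to 465648, forward strand) stood at -58, -60, -60 and -58 bp with phenanthroline, against -67, -68, -61 and -66 bp untreated, a difference of 6.50 (SE 1.72, limma adjusted p = 0.0386). With the +1 taken as the nucleosome nearest the coding start, CAM1 differed by 1.25 bp and did not pass. SUI3 stood at 16, 16, 20 and 21 bp with phenanthroline, against 13, 13, 13 and 10 bp untreated, a difference of 6 (SE 1.61, limma adjusted p = 0.0400). These are shifts of a few bp, smaller than the 147 bp a nucleosome covers. With the strain block 0 members passed (15 at an unadjusted p under 0.05), and without label 1, 2, 3 and 4 in turn 0, 0, 6 and 0.

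The distance from the +1 to the last nucleosome of the coding sequence was shorter with phenanthroline at 2 of 28 members and longer at 0, where 15.2% of 4758 genes passed in limma, 14.4% shorter and 0.757% longer. At an unadjusted limma p under 0.05, 9 members were shorter and 0 longer, where 1672 and 104 of the 4758 genes were. EFB1 (YAL003W, chromosome I, 142174 to 143160, forward strand) measured 1010, 1019, 1021 and 1024 bp with phenanthroline, against 1048, 1051, 1027 and 1047 bp untreated, a difference of -24.8 (SE 5.94, limma adjusted p = 0.0349). CAM1 measured 1259, 1260, 1261 and 1261 bp with phenanthroline, against 1274, 1275, 1266 and 1270 bp untreated, a difference of -11 (SE 3.12, limma adjusted p = 0.0498). In both genes the groups did not overlap, and untreated label 3 was the lowest untreated library. EFB1 and CAM1 encode subunits of the same exchange factor, eEF1B, which was noticed after their values were seen. The median over members was -6.13 bp and over all genes -9.25 bp. Between neighbouring dyads the member median was 155 bp with phenanthroline and 157 bp untreated. With the strain block 0 members passed (9 at an unadjusted p under 0.05), and without label 1, 2, 3 and 4 in turn 0, 0, 7 and 0.

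Of the 369 nucleosomes, 5 had moved upstream with respect to their gene and 0 downstream, where 1.28% of nucleosomes in the genome passed for a shift in either direction, 0.653% to higher and 0.623% to lower coordinates. At an unadjusted p under 0.05 in limma 55 lay upstream and 17 downstream. The genome was counted by chromosome coordinate and not by gene direction. Whether the upstream excess is particular to the members was therefore not tested. At EFT1 the -1 dyad stood at -344, -342, -340 and -344 bp with phenanthroline, against -321, -328, -327 and -320 bp untreated, relative to the coding start. The groups did not overlap, and the shift was -18.5 bp (SE 2.51, limma adjusted p = 0.0253). EFT2 had its -1 dyad at -239, -241, -233 and -241 bp with phenanthroline, against -221, -222, -226 and -221 bp untreated, a shift of -16.0 bp (SE 2.50, limma adjusted p = 0.0382). TIF4632 had it at -395, -400, -398 and -390 bp with phenanthroline, against -369, -361, -381 and -369 bp untreated, a shift of -25.8 bp (SE 4.42, limma adjusted p = 0.0458). The -1 nucleosome thus stood further from the gene at both eEF2 genes, which lie on different chromosomes, and at TIF4632. At EFT1 it lay inside the tandem neighbour VPS17, 267 bp upstream, while at EFT2 the divergent neighbour ATO3 was 1198 bp away. The other shifts were -23.0 bp (SE 3.01, limma adjusted p = 0.0231) at -445 bp of RPG1 and -14.5 bp (SE 2.21, limma adjusted p = 0.0356) at the 4th nucleosome of CDC33. With the strain block 0 passed, and without label 1, 2, 3 and 4 in turn 0, 2, 5 and 0.

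Few nucleosomes appeared or vanished, in the member regions as in the genome. In the member regions 0 of 446 consensus nucleosomes were present in every library of a treatment and absent from every library of the other. Of 76946 in the genome, 92 were called in all libraries with phenanthroline only and 106 in all untreated ones only. The count of 0 was thus near the share in the genome. SUP35 held the single nucleosome called in at least 3 more libraries of 1 group, its 13th, at 1847 bp, found in 4 libraries with phenanthroline and in 1 untreated. In the genome 0.764% of 76946 consensus nucleosomes were called that much more often with phenanthroline and 0.594% untreated. By number of calls, 18 members averaged more with phenanthroline, 9 fewer and 10 the same, and the mean difference was 0.338 calls a gene against 0.328 over all genes. The groups did not overlap at 2 members, or 5.41%, where 3.17% of all genes did not. TIF4631 had 25, 25, 24 and 25 calls with phenanthroline, against 22, 23, 23 and 23 untreated. GCD2, the delta subunit of eIF2B, had 17, 19, 18 and 19 with phenanthroline, against 16 in each untreated library. Counting only calls with a score of at least 0.4, 0 members had groups that did not overlap, where 3.55% of all genes did, although the mean difference of TIF4631 was 3.5 calls there, against 2 over all calls.

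For the neighbouring machinery, 24 other genes of translation were measured, among them the helicase DED1, the eIF2 kinase GCN2 with its partners, and the ribosome rescue factors DOM34 and HBS1. In region score TMA22 was higher with phenanthroline at 0.0925 (SE 0.0200, limma adjusted p = 0.0210) and DOM34 lower at -0.166 (SE 0.0281, limma adjusted p = 0.00773), and 22 of the 24 did not pass. In gene-body score 1 was lower, DOM34, and 0 were higher, in limma at the adjusted p of 0.05, with 6 higher and 1 lower at an unadjusted p under 0.05. Upstream, TIF6, EAP1 and CLU1 were lower and 0 higher, with 4 lower and 2 higher at an unadjusted p under 0.05. The depleted region was wider at 7 of the 21 measured and narrower at 1. The +1 passed at RLI1 and DED1 in opposite directions, and the distance to the last nucleosome was shorter at GCN1 and TMA64.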

How the data were processed

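Nucleosomes were measured by MNase-seq on semi-intact cells, digested to about 80% mononucleosomes and sequenced as read pairs of 75 bp, per the labels' protocols. The deposited files hold nucleosome calls of nucleR, per the file columns, 1 file per library, with start and end coordinates and a score. The coordinates are on sacCer3, per the submitters' processing notes. The aligner, the read filters and the nucleR version were not given in the sources used here. The deposited score of a call was the mean of its width and height scores, tested on every call with 0 off by over 1e-06. Between 91.4% and 92.9% of calls span 147 bp, and the centre was taken as the dyad.

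From these calls, offsets of about 81 bp beyond the insertion sites were measured between libraries in windows of 20000 bp and subtracted from the libraries that showed them. After that 0 of 96 comparisons beyond a site were off by over 40 bp, where 50 had been. Dyads of all libraries, pooled and smoothed with an SD of 20 bp, gave 76946 consensus nucleosomes at least 80 bp apart, and calls were assigned within 60 bp. The depleted region was the widest gap between neighbouring consensus nucleosomes that ended from -150 to 200 bp of the coding start, and its flanks were the -1 and +1 nucleosomes. Only consensus nucleosomes called in at least 4 libraries counted for this. Single libraries could therefore hold a call inside the gap, as phenanthroline label 1 did at -197 bp of TEF1. Gene coordinates came from RefSeq assembly R64, the assembly behind sacCer3. Scores were averaged over at least 3 calls in every library (1 upstream).

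Values were compared between 4 libraries per treatment with limma 3.58.1 in R 4.3.3, two-sided, over all genes or nucleosomes with a value in every library, adjusted by Benjamini-Hochberg, at a threshold of 0.05. The fits were tested on simulated data. Python 3.11.15, numpy 2.4.6, pandas 2.3.3 and matplotlib 3.10.9 did the rest. Alternatives were the strain number as a block, each strain label left out, other scores, filters and windows. Same-numbered libraries carry the same strain per the labels, which pairs them, and their deviations from the group means correlated at 0.0375, 0.279, 0.0930 and 0.0721 over 5754 genes. Between treated and untreated libraries of different number the correlations ran from -0.201 to 0.175, so only the value of label 2 lay above that range.

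The members, the gene lists and the tests were chosen with earlier results of these data known. Named were all members past the threshold (the 8 with the smallest p where more passed), the 3 largest rises and falls in region score, the highest and lowest untreated score, the paralogous pairs, and the 10 nucleosomes with the smallest p. Other members, among them PAB1 for its width, TIF3, RPG1 and EFB1, were named after their values were seen. Promoter motifs were not searched, because no sequence was used here.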

Additional observations from a re-analysis of the deposited data

Results flagged for a closer look

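In 8 of 74 groups of 4 libraries examined for the genes named, a single library stood far from the other 3. For independent, normally spread values chance alone gives about 1 group in 20. These groups share libraries and calls, and some hold tied values, so the rates cannot be compared. The libraries of label 3 made up 6 of the 8. Among phenanthroline libraries, label 3 gave HCR1 a low region score of 0.610 and EFT2 a depleted region of 225 bp, narrower than in the other 3. Phenanthroline label 4 gave GCD11 a depleted region of 303 bp, where the other 3 all had 305 bp. Among untreated libraries, label 3 gave YEF3 a region score of 0.462 and GCD11 a promoter score of 0.929, both the lowest. It also gave RPG1 a depleted region of 294 bp, the widest, and EFB1 a distance from the +1 to the last nucleosome of 1027 bp, the shortest. Untreated label 4 placed the +1 of SUI3 at 10 bp from the coding start, where the other 3 had 13 bp. What sets the label 3 libraries apart was not tested.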

How the results depend on the processing

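Leaving out 1 strain label at a time, the members past the threshold numbered 0 to 4 for region score (4 with all), 0 to 1 for gene-body score (2 with all), 0 to 5 for promoter score (7 with all), 0 to 9 for width (10 with all), 0 to 6 for +1 position (3 with all), 0 to 7 for distance to the last nucleosome (2 with all), 2 to 16 for nucleosome score (27) and 0 to 5 for dyads (5). Over all genes or nucleosomes the ranges were 36 to 375 for region score (500), 3 to 274 for gene-body score (347), 182 to 782 for promoter score (964), 15 to 1650 for width (1368), 18 to 1341 for +1 position (1101), 1 to 863 for distance to the last nucleosome (723), 683 to 3617 for nucleosome score (5038) and 72 to 1080 for dyads (768). The lowest member count of each measure was that without label 1 or label 4, and without label 2 it was 0 as well for +1 position and distance to the last nucleosome.

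The strain number as a replicate block, which pairs the libraries of a strain, left 4 members in promoter score (608 genes in all), 16 nucleosomes in member regions in score, and in limma 0 members in width (36 in all), +1 position (17 in all), distance to the last nucleosome (133 in all) and dyads (0 in all, with 79 in member regions and 13462 in all at an unadjusted p under 0.05). It changed no other count by over 1.5 times. The height score alone gave 8 members in region score (845 in all) and 5 in gene-body score (734 in all). The width score alone gave 2 in region score (291 in all), 0 in gene-body score (204 in all), 2 in promoter score (148 in all) and 15 nucleosomes in score (1951 in all). Under it the nucleosome of PRT1 at -480 bp turned to -0.0163 (adjusted p 0.771). Centred scores gave 5 members in gene-body score (627 in all) and 3 in promoter score (499 in all), and the median over calls 1 and 3. Without the chromosome parts beyond an insertion 2 members passed in region score, 0 in gene-body score (3 at an unadjusted p under 0.05), 5 in width and 3 in dyads, since 8 members then had no value. With no offset subtracted these were 5 in width, 17 in nucleosome score and 2 in dyads (385 in all). Assignment within 30 bp gave 4 in distance to the last nucleosome and 11 in dyads (1519 in all), and calls scored at least 0.4 gave 8 in dyads. Unless stated, the cause was not tested.

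Of 571 values of single genes and nucleosomes under an alternative, 375 kept direction and side of the threshold, 170 kept the direction and no longer passed, 7 newly passed and 19 changed sign. The 571 include region scores that did not pass with the main setting and so could not stop passing. They also include settings that leave a value unchanged. The 375 therefore do not measure how stable the passing results were. Besides the nucleosome of PRT1, the 19 with a changed sign were region scores that did not pass under either setting. With the width score alone RPG1 was at -0.000699, YEF3 at -0.0169, EFT2 at 0.0135, CAM1 at -0.0434 and TEF4 at -0.0222. Over calls scored at least 0.4 TIF2 was at -0.0303, CAM1 at -0.0158 and TEF4 at -0.0278. With the height score alone TIF2 was at -0.00397 and HYP2 at 0.0108, with the median over calls TIF2 at -0.0339, and with 400 bp upstream HYP2 at 0.00222. Leaving out 1 strain label at a time, YEF3 ran between -0.0208 and 0.0184, TIF2 between -0.0402 and 0.0763, HYP2 between -0.0527 and 0.0133, CAM1 between -0.00635 and 0.0307 and TEF4 between -0.00301 and 0.0256. Read depth per library is not known, which limits every score.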
